A study of Homo sapiens with 5 samples.

Results

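The 46 genes described here encode proteins that a cell needs between the end of DNA replication and the separation of its daughters, from the B-type cyclins and CDK1 to the kinetochore, the spindle checkpoint and condensin. They were chosen by gene symbol, and all 46 listed symbols were found among the 26364 symbols of the deposited tables, with a log2 value above 0 in each of the 5 libraries. The libraries came from SH-SY5Y, an established human neuroblastoma cell line, and each stands for 1 group. Differentiation and Nondifferentiation are cells whose media labels both list 50 uM retinoic acid, serum and antibiotics. The cells named siSTAU1, siUPF1 and siControl carry labels with serum and antibiotics only, and their titles name an siRNA against STAU1, an siRNA against UPF1 or a control siRNA. STAU1 binds double-stranded RNA and can recruit UPF1, a helicase of mRNA decay, and the design asks which transcripts were higher after loss of either factor and in differentiation. The siRNA sequences, the time of treatment, and whether the cells came from separate cultures were not stated in the labels.

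Many genes of this kind are expressed most in G2 and M phase, while some, such as MYBL2, come on earlier in the cycle. In resting cells the DREAM complex, made of a pocket protein, an E2F factor and the MuvB core, binds promoters of many cell cycle genes and represses them. In cycling cells MuvB binds B-MYB, encoded by MYBL2, and then FOXM1, and many of these promoters become active. The promoter element that MuvB reads is called the cell cycle genes homology region (CHR), and CCAAT boxes, bound by NF-Y, often lie upstream of it. In neuroblastoma cells retinoic acid is known to slow proliferation as the cells take on neuronal traits.

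The promoters below are shown because these 5 genes had the lowest differences between Differentiation and Nondifferentiation among measured members with a promoter entry and a searched motif. Each is 300 bases from the RefSeq promoter table (GRCh38.p14), 5' to 3' on the gene's strand, from 250 bases before the start site to 50 after it. Capitals mark the matches to the CHR words TTTGAA and TTCGAA, to CCAAT and to the E2F words TTTCCCGC and TTTGGCGC, each searched on both strands.
CDC20: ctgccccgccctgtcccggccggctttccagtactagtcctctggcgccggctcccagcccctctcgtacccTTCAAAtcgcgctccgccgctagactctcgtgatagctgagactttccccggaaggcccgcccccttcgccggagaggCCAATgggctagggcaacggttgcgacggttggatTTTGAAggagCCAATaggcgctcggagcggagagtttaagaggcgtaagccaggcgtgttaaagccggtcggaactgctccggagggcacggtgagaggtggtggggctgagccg
HMMR: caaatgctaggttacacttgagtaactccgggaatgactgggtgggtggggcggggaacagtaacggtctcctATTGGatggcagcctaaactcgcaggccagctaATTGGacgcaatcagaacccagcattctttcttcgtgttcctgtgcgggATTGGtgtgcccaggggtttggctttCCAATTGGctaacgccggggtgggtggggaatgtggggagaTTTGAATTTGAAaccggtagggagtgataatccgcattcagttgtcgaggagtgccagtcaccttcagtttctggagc
CCNB1: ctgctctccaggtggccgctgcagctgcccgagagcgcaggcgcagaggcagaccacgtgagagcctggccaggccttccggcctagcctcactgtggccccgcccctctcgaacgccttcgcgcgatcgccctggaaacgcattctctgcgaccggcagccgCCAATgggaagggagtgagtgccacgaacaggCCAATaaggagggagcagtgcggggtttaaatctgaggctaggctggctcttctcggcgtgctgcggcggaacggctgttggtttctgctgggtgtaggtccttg
CENPA: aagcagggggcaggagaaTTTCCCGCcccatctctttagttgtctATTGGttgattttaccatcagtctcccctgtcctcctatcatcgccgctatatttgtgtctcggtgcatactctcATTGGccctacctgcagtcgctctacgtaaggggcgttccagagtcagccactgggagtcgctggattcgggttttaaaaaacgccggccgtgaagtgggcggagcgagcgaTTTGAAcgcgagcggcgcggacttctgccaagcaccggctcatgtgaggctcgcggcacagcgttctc
NEK2: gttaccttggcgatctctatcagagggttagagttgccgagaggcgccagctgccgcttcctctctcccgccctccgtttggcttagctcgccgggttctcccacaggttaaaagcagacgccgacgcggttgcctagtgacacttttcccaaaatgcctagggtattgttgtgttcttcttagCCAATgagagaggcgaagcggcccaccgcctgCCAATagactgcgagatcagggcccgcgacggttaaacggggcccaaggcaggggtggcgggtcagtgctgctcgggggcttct
CDC20 lies at chr1:43358731-43359030 on the plus strand, HMMR at chr5:163460382-163460681 on the plus strand and CCNB1 at chr5:69166900-69167199 on the plus strand. CENPA lies at chr2:26785806-26786105 on the plus strand and NEK2 at chr1:211675572-211675871 on the minus strand. CDC20 holds a CHR word at position -65 between CCAAT boxes at -100 and -55, and another on the opposite strand at -178. HMMR holds adjacent CHR words at -28 and -22 and 5 CCAAT matches, of which those at -69 and -66 overlap on opposite strands. CENPA holds a CHR word at -18, CCAAT matches at -205 and -130 and an E2F word at -232. CCNB1 and NEK2 hold 2 CCAAT boxes each, at -87 and -55 in CCNB1 and at -66 and -34 in NEK2. The CHR words searched are not in these windows of CCNB1 and NEK2. The CHR-like word TTTAAA, which was not marked, is in the windows of CCNB1 and CENPA.

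In each library a gene has a single log2 value, made by sequencing the 3' ends of polyadenylated RNA. The 5 libraries had been brought to a common distribution of values, which removes differences in total RNA between them. Depth in reads is an estimate, from the step between neighbouring low values, of 1.58e+07 reads in siSTAU1 to 3.18e+07 reads in Differentiation. The targeted mRNAs were lower in their own libraries, STAU1 by a log2 difference of -1.52 in siSTAU1 and UPF1 by -1.53 in siUPF1, both against siControl. Between Differentiation and Nondifferentiation they differed by -0.01 for STAU1 and 0.07 for UPF1. Of 12 noradrenergic markers of neuroblastoma, 12 had a value above 0 in each library, the lowest being 2.14 in Nondifferentiation. Their median was highest in Nondifferentiation, 11.90, and lowest in Differentiation, 9.60. A value above 0 does not by itself identify a cell type. Of 10 epithelial markers, siSTAU1 listed 0 at 0, siUPF1 listed 3 and siControl listed 4. The log2 of their summed linear values was 10.12 for siSTAU1, 9.30 for siUPF1 and 9.32 for siControl. Differentiation listed 1 at 0 and had a sum of 8.98, against 5 and 9.22 for Nondifferentiation. The sums rest largely on CLDN7. The medians of the 10 were 5.46 in siSTAU1, 2.25 in siUPF1 and 1.37 in siControl. In Differentiation the median was 3.22, against 0.13 in Nondifferentiation. KRT8 stood at 7.53 in siSTAU1 and 4.23 in siUPF1 against 2.49 in siControl, and at 4.58 in Differentiation against 2.14 in Nondifferentiation. The highest of the 10 in each library was CLDN7. It stood at 8.96 in siSTAU1, 8.91 in siUPF1, 9.16 in siControl, 8.50 in Differentiation and 9.07 in Nondifferentiation. Whether the epithelial marker reads came from other cells, and their part in the results below, was not tested. Glial SOX10 and the blood cell marker PTPRC were listed at 0 in all 5 libraries.

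Because each group has 1 library, no difference between groups has a replicate check and no test was run. Differences are given as subtractions of log2 values, and the words higher and lower, where counted, mean a difference of at least 2-fold. A gene is called measured when its 5 log2 values averaged 7.83 or more, which is the median of the values above 0. This left 8265 genes, with 44 of the 46 among them, and NDC80 and ESPL1, with means of 7.07 and 7.26, under the limit. Counting errors are given as the SE of a log2 difference at the estimated read numbers. They cover counting error only, and reads without molecular identifiers are not independent molecules.

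All 46 genes had their lowest value of the 5 libraries in Differentiation. Against Nondifferentiation 44 of the 46 were lower by at least 2-fold, 32 by at least 4-fold, and 0 were higher. Among measured genes the counts were 42 of 44 lower, where 10.9% of all 8265 measured genes were lower and 7.61% were higher. The median difference of the 46 was -2.31, a 4.95-fold lower value, against -0.02 over all measured genes. At least 4-fold lower values were found for 2.59% of all measured genes. For each of the 46 the gap between Differentiation and the lowest of the other 4 libraries, 0.66 to 3.80, exceeded the whole range of those 4. That range had a median of 0.39 and a maximum of 0.98. The shares of all measured genes with their lowest value in Differentiation, or with such a gap, are not given here. In the pair with Nondifferentiation, 51.3% of all measured genes had a difference below 0. In whole cultures, fewer dividing cells and less of these mRNAs per cell cannot be told apart.

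**Figure D1:**
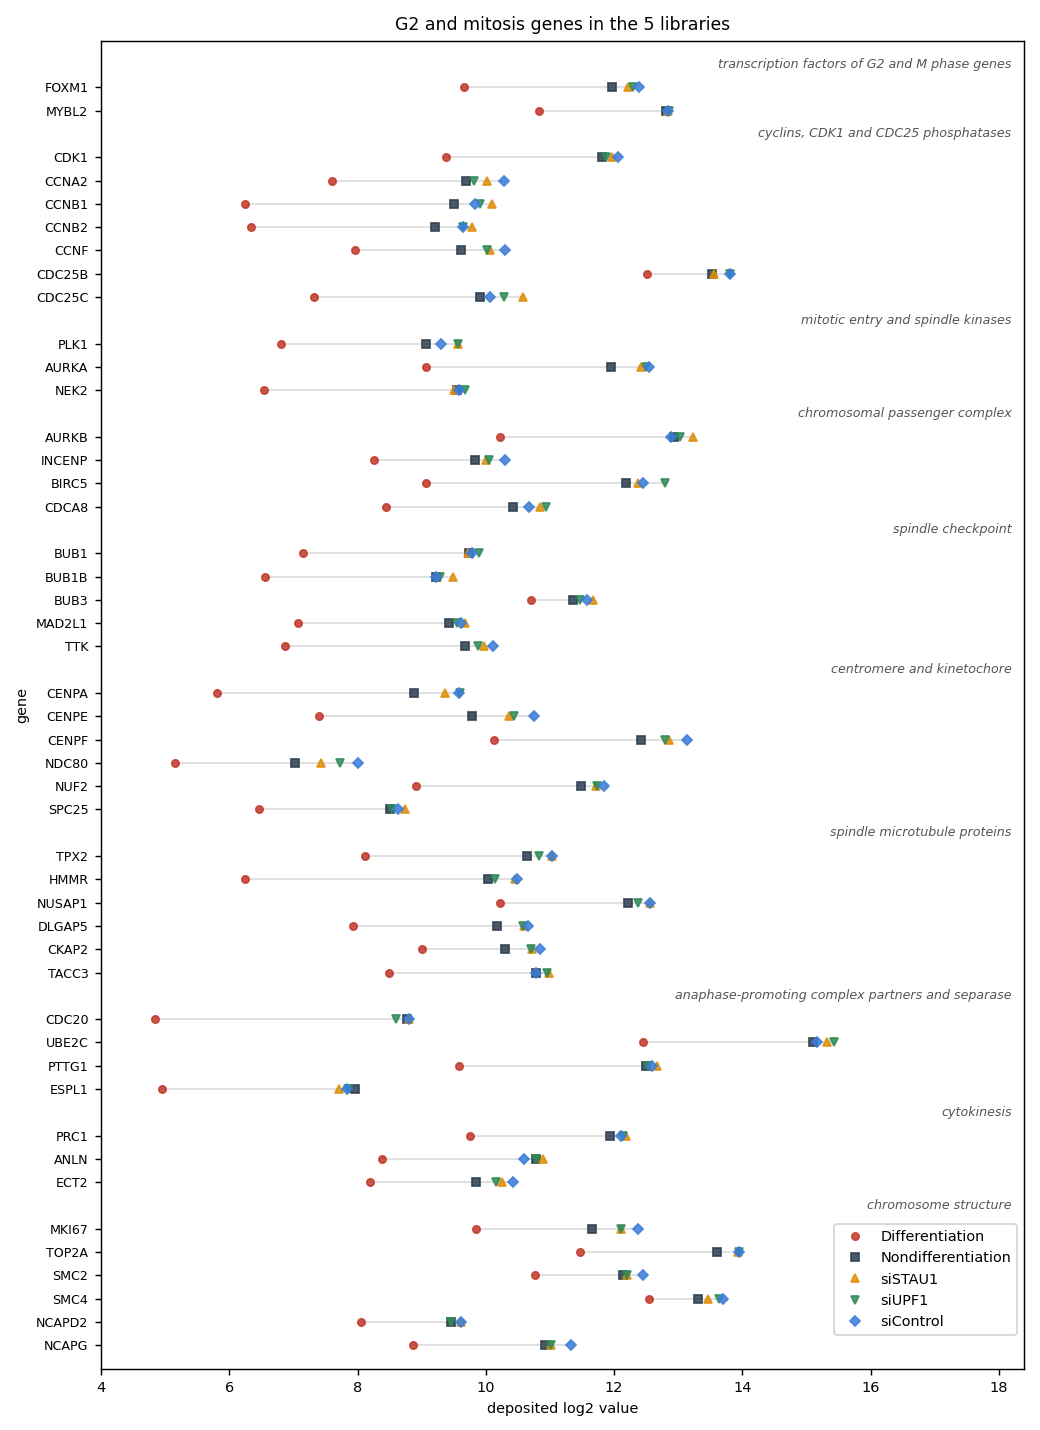
Deposited log2 values (horizontal axis) of the 46 genes, 1 row per gene, grouped by role, with 1 symbol per library. The Differentiation symbols lie left of the other 4 in all 46 rows, and BUB3 and SMC4 have the shortest gaps between Differentiation and Nondifferentiation, 0.66 and 0.76.

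Both transcription factors that drive this program were lower in Differentiation. FOXM1, the forkhead factor of late G2, stood at 9.65 in Differentiation against 11.98 in Nondifferentiation, and its knockdown values were 12.21 in siSTAU1 and 12.29 in siUPF1 against 12.39 in siControl. MYBL2 stood at 10.83 in Differentiation against 12.80 in Nondifferentiation, and at 12.84 in siSTAU1 and 12.86 in siUPF1 against 12.84 in siControl. The differences in the differentiation pair were -2.32 for FOXM1 and -1.97 for MYBL2, the second a 3.92-fold lower value. MYBL2 had the narrowest spread among the 4 libraries outside Differentiation, 0.05, so the Differentiation value stood far from a tight group.

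Among cyclins, CDK1 and the CDC25 phosphatases all 7 genes were lower, from 2.02-fold for CDC25B to 9.60-fold for CCNB1. CDK1, the catalytic subunit, stood at 9.38 in Differentiation against 11.82 in Nondifferentiation, and at 11.96 in siSTAU1 and 11.88 in siUPF1 against 12.06 in siControl. Cyclin B1, CCNB1, stood at 6.24 in Differentiation against 9.50 in Nondifferentiation, and at 10.10 in siSTAU1 and 9.91 in siUPF1 against 9.83 in siControl. Its difference of -3.26, a 9.60-fold lower value with a counting SE of 0.14, was the lowest of the cyclins, and its promoter is among those printed above. Cyclin B2, CCNB2, had -2.87, from 6.34 in Differentiation and 9.21 in Nondifferentiation. Cyclin A2, CCNA2, which acts from S phase into G2, had -2.08, from 7.61 in Differentiation and 9.69 in Nondifferentiation. Cyclin F, CCNF, which does not activate a CDK but serves as a ubiquitin ligase subunit, had -1.65. The B-type cyclins thus had lower differences than cyclin A2 and cyclin F in this pair of libraries. The phosphatases that remove inhibitory phosphates from CDK1 were unequal: CDC25C had -2.60, 7.31 in Differentiation against 9.91 in Nondifferentiation, while CDC25B had -1.01, 12.51 against 13.53. CDC25B lies just inside the 2-fold limit, and it had -0.99 after subtraction of the median of all measured genes.

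The kinases of mitotic entry and spindle assembly were all lower. Aurora A, AURKA, which matures centrosomes, stood at 9.06 in Differentiation against 11.95 in Nondifferentiation, and at 12.42 in siSTAU1 and 12.49 in siUPF1 against 12.55 in siControl. Its difference was -2.89, 7.39-fold lower. PLK1, the polo-like kinase that helps to activate CDC25C, had -2.26, with 6.81 in Differentiation and 9.07 in Nondifferentiation. NEK2, a kinase that separates centrosomes, had -3.01, with 6.54 in Differentiation and 9.55 in Nondifferentiation, while its other 4 libraries spanned 0.18.

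In the chromosomal passenger complex, which corrects wrong attachments of chromosomes to the spindle, the subunits were lower by unequal amounts. Survivin, BIRC5, had -3.12 with 9.06 in Differentiation against 12.18 in Nondifferentiation. Aurora B, AURKB, the kinase of the complex, had -2.72 with 10.22 against 12.94. Borealin, CDCA8, had -1.99 with 8.44 against 10.43, and the scaffold INCENP had -1.58 with 8.25 against 9.83. The range within the complex thus ran from 8.70-fold for BIRC5 to 2.99-fold for INCENP. BIRC5 has an antisense partner on the opposite strand, and whether counting used strand was not stated, so its reads and those of that partner cannot be told apart.

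Of the 5 spindle checkpoint genes, 4 were lower by at least 2-fold. TTK, the kinase that starts checkpoint signalling at kinetochores, had -2.81, with 6.87 in Differentiation against 9.68 in Nondifferentiation. BUB1B had -2.66 with 6.56 against 9.22, BUB1 had -2.58 with 7.15 against 9.73, and MAD2L1, the MAD2 subunit of the checkpoint complex, had -2.35 with 7.07 against 9.42. BUB3 stood apart from its binding partners BUB1 and BUB1B. It stood at 10.70 in Differentiation against 11.36 in Nondifferentiation, and at 11.67 in siSTAU1 and 11.47 in siUPF1 against 11.58 in siControl. The difference of -0.66 for BUB3, a 1.58-fold lower value with a counting SE of 0.04, was the smallest of all 46.

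Genes of the centromere and kinetochore, the platform that holds microtubules, were lower in 6 of 6 cases. CENPA, the histone H3 variant that marks centromeres, stood at 5.81 in Differentiation against 8.88 in Nondifferentiation, and at 9.37 in siSTAU1 and 9.60 in siUPF1 against 9.59 in siControl. Its difference was -3.07, 8.39-fold lower. The NDC80 complex subunits NUF2, SPC25 and NDC80 had -2.58, -2.04 and -1.88. The low value of NDC80, 5.15 in Differentiation from about 58 reads, gave it the largest counting SE of the set, 0.23. CENPE, the kinesin that moves chromosomes to the spindle equator, had -2.40 with 7.39 in Differentiation and 9.79 in Nondifferentiation, and CENPF, a large kinetochore and nuclear matrix protein, had -2.29 with 10.13 and 12.42.

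Among proteins of spindle microtubules the differences spread most widely. HMMR, which helps to focus spindle poles, stood at 6.24 in Differentiation against 10.04 in Nondifferentiation, and at 10.46 in siSTAU1 and 10.14 in siUPF1 against 10.48 in siControl. Its difference of -3.80, 13.9-fold lower, was the second lowest of the 46. TPX2, the activator of Aurora A, had -2.52 with 8.12 in Differentiation and 10.64 in Nondifferentiation. TACC3, a clathrin- and Aurora A-linked spindle protein, had -2.29, DLGAP5, which stabilises kinetochore fibres, had -2.26, and NUSAP1, a microtubule bundler, had -1.99. CKAP2, another microtubule-associated protein, was less different, at -1.30, a 2.46-fold lower value. The role therefore holds both one of the lowest differences and one nearer the 2-fold limit.

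The partners of the anaphase-promoting complex, with separase, had the lowest median of the 10 roles, -2.96. CDC20, the subunit that lets this ubiquitin ligase start anaphase, stood at 4.85 in Differentiation against 8.78 in Nondifferentiation, and at 8.81 in siSTAU1 and 8.60 in siUPF1 against 8.81 in siControl. Its difference of -3.93, 15.2-fold lower, was the lowest of all 46, with a counting SE of 0.22 from about 47 and 413 reads. UBE2C, the ubiquitin-conjugating enzyme of the complex, stood at 12.44 in Differentiation against 15.10 in Nondifferentiation, and at 15.32 in siSTAU1 and 15.43 in siUPF1 against 15.16 in siControl. Securin, PTTG1, and separase, ESPL1, the protease that securin holds inactive until anaphase, had -2.92 and -3.01. ESPL1 stood at 4.94 in Differentiation against 7.95 in Nondifferentiation, and PTTG1 at 9.58 against 12.50. PTTG1 has near-identical copies, and PTTG2 was listed at 0 in Differentiation against 4.74 in Nondifferentiation, while PTTG3P had 2.58 against 4.50. How reads were divided between these copies was not stated, so the value of PTTG1 carries that uncertainty.

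In cytokinesis, ANLN, the contractile ring scaffold anillin, had -2.41, PRC1, the bundler of the central spindle, had -2.18, and ECT2, the exchange factor that activates RhoA at the furrow, had -1.66. ANLN stood at 8.38 in Differentiation against 10.79 in Nondifferentiation, PRC1 at 9.75 against 11.93 and ECT2 at 8.20 against 9.85. All 3 were below the other 4 libraries.

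Proteins of chromosome structure had the smallest median difference of the 10 roles, -1.61. TOP2A, the topoisomerase that untangles sister DNA, stood at 11.47 in Differentiation against 13.60 in Nondifferentiation, and at 13.94 in siSTAU1 and 13.95 in siUPF1 against 13.95 in siControl. MKI67, the Ki-67 antigen that coats mitotic chromosomes and is used to score proliferation, stood at 9.84 in Differentiation against 11.66 in Nondifferentiation, and at 12.11 in siSTAU1 and 12.11 in siUPF1 against 12.37 in siControl. Their differences were -2.13 and -1.82, 4.37-fold and 3.53-fold lower. Within condensin the subunits differed from each other: NCAPG had -2.07, NCAPD2 -1.40, and the ATPase subunits SMC2 and SMC4 -1.37 and -0.76. SMC4 stood at 12.54 in Differentiation against 13.30 in Nondifferentiation and was, with BUB3, outside the 2-fold limit. SMC2 and SMC4 also serve another condensin complex.

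**Figure D2:**
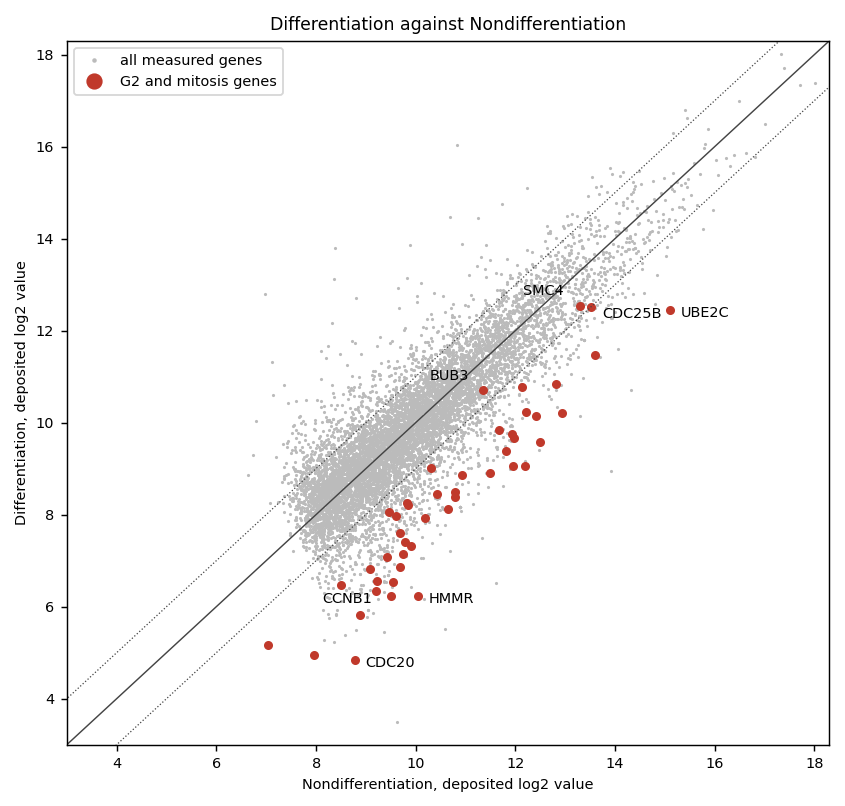
Deposited log2 values in Differentiation (vertical axis) against Nondifferentiation (horizontal axis) for all 8265 measured genes (grey) and the 46 genes (red). The solid line marks equal values and the dotted lines 2-fold, and 44 of the 46 lie on or below the lower dotted line, with BUB3 and SMC4 above it.

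Neither knockdown library showed a like difference. In siSTAU1 against siControl 0 of the 46 were higher and 0 were lower by 2-fold, where 0.0484% and 0.0605% of all measured genes were. In siUPF1 against siControl the counts were again 0 and 0, where 0.278% and 0.0605% of all measured genes were higher and lower. At 1.5-fold the counts in the 46 were also 0 in both directions. For siSTAU1 0.859% of all measured genes were higher and 1.11% lower by that much, and for siUPF1 2.67% and 1.2%. With shares this small, counts of 0 do not set the 46 apart from other measured genes. The medians over the 44 measured members were -0.04 in siSTAU1 and -0.07 in siUPF1, against 0.01 and -0.01 over all measured genes. Both knockdowns share siControl, so their values are given side by side and not set against each other.

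Single genes differed by less than 1.5-fold in the knockdown libraries. CDC25C had the highest difference in siSTAU1, 0.52, where it stood at 10.59 against 10.06 in siControl, and it had 0.23 in siUPF1. NDC80 had the lowest, -0.58, with 7.43 in siSTAU1 against 8.01 in siControl, and it had -0.28 in siUPF1. BIRC5 had the highest difference in siUPF1, 0.35, with 12.79 against 12.45 in siControl, and -0.08 in siSTAU1. CCNA2 had the lowest in siUPF1, -0.47, with 9.81 against 10.28 in siControl, and -0.27 in siSTAU1. These differences exceed their counting errors, which reached at most 0.16 in siSTAU1 and 0.14 in siUPF1, but the spread between cultures is unknown. By role, 5 of 6 centromere and kinetochore genes were below 0 in each knockdown, where 48.7% of all measured genes were below 0 in siSTAU1 and 51.5% in siUPF1. Their medians were -0.25 in siSTAU1 and -0.19 in siUPF1, but against Nondifferentiation all 6 were above 0 in both, with medians of 0.42 in siSTAU1 and 0.51 in siUPF1. The chromosome structure genes had medians of -0.24 in siSTAU1 and -0.20 in siUPF1. The chromosomal passenger complex had 0.05 in siSTAU1 and 0.20 in siUPF1. The medians of the chromosome structure genes were also above 0 when Nondifferentiation was the reference, 0.16 for siSTAU1 and 0.20 for siUPF1.

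siControl itself differed from Nondifferentiation, and the 46 genes lay mostly on one side. Of the 46, 43 had a difference above 0 and 3 below 0, ANLN at -0.19, ESPL1 at -0.13 and AURKB at -0.04, where 50.7% of all measured genes were above 0. None passed 2-fold, where 0.145% of all measured genes were higher and 0.436% were lower by that much. At 1.5-fold 7 of the 44 measured members were higher, where 1.9% of all measured genes were. The median difference was 0.32, a 1.25-fold higher value. The kinetochore genes had a median of 0.72, led by NDC80 at 0.98, CENPE at 0.95, CENPF at 0.72 and CENPA at 0.71. The partners of the anaphase-promoting complex had 0.05. NDC80 stood at 8.01 in siControl against 7.03 in Nondifferentiation, and CENPE at 10.74 against 9.79. Among the 4 libraries outside Differentiation, Nondifferentiation held the lowest value for 39 of the 46. The like share of all measured genes is not given here. Against Nondifferentiation, 51.4% of all measured genes were above 0 in siSTAU1 and 48.3% in siUPF1. siControl and Nondifferentiation differed in transfection and in the media labels, whose parts cannot be told apart.

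The choice of reference therefore set the sign of the knockdown medians. With Nondifferentiation in place of siControl the medians over the 44 measured members were 0.28 in siSTAU1 and 0.22 in siUPF1, with 0 members past 2-fold in each. Of all measured genes 0.206% were higher and 0.472% lower in siSTAU1 on that footing, and 0.423% and 0.605% in siUPF1. With siControl in place of Nondifferentiation the median in Differentiation was -2.65, with 43 of 44 lower, SMC4 among them at -1.15, where 12.1% of all measured genes were lower.

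**Figure D3:**
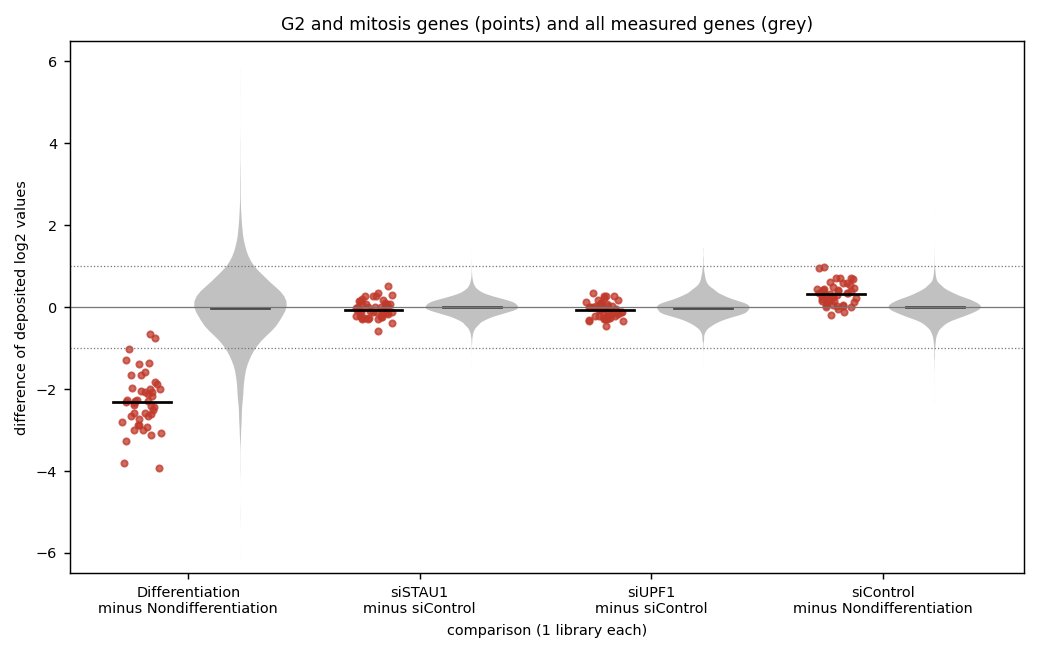
Differences of deposited log2 values (vertical axis) in 4 comparisons of 1 library each, for the 46 genes (red points, black bar at the median) and all 8265 measured genes (grey outlines, dark bar at the median). The red points lie between -3.93 and -0.66 in the differentiation pair, between -0.58 and 0.52 in both knockdown comparisons, and mostly above 0 for siControl minus Nondifferentiation.

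Genes that act beside the 46 in the cell cycle were also set against Nondifferentiation. Of 52 other G2 and mitosis genes, 43 were measured, and 41 of these were lower in Differentiation by at least 2-fold and 0 were higher. Their median was -2.14. Shugoshin 1, SGOL1, which protects cohesion at centromeres, stood at 7.50 in Differentiation against 11.32 in Nondifferentiation, a difference of -3.83, and OIP5, a loading factor of CENPA, had -3.30. BORA, a cofactor of Aurora A, and ZWILCH, a kinetochore protein, had the smallest differences, -0.83 and -0.85.

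DNA replication genes were lower to a similar extent. Of 41 S phase genes, 37 were measured, with 35 lower, 0 higher and a median of -1.98. ORC1, the origin recognition subunit, stood at 5.77 in Differentiation against 9.01 in Nondifferentiation, a difference of -3.24, and GINS1, a subunit of the replicative helicase, had -2.58. RPA1, which coats single-stranded DNA, had -0.75, and the ligase LIG1 had -0.90. Genes of G1 were more mixed, with 8 of 14 measured lower, 0 higher and a median of -1.11. CKS2, a CDK-binding subunit, had -2.74 and E2F2, an activating E2F, had -2.45, while the kinase CDK6 had -0.07 and TFDP2, a partner of E2F factors, had 0.65.

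The repressors and the degradation machinery stood closer to the median of all genes. Of 7 measured genes of DREAM and the MuvB core 2 were lower, LIN9 at -1.19 and the pocket protein gene RBL1 at -1.04, and the median was -0.57. DYRK1A, the kinase that assembles DREAM, had 0.05 and RBBP4 had -0.31. Of 12 measured genes of the anaphase-promoting complex and its regulators 2 were lower, UBE2S at -1.71 and FBXO5, an inhibitor of the complex, at -1.32. CDC16 at 0.20 and FZR1, the G1 activator that replaces CDC20, at 0.18 were the highest, and the median was -0.37. CDC20 and UBE2C, by contrast, had -3.93 and -2.65. Among 13 measured CDK inhibitors, pocket proteins and repressor E2Fs 0 were higher and 1 was lower, RBL1, with a median of -0.35. E2F5 had -0.85, and the highest measured were GADD45A at 0.55 and CCNG2 at 0.54. These figures depend on the measured limit. Of the listed genes under it, CDKN2B had 4.41, BTG2 1.54, RBL2 0.77, CDKN2A -0.20 and CDKN1C -5.27. CDKN2B was listed at 0 in Nondifferentiation and CDKN1C at 0 in Differentiation. Over all 18 listed genes the median was -0.05. CDKN1A, which encodes the CDK inhibitor p21, had -0.77 in Differentiation against Nondifferentiation. Between siControl and Nondifferentiation it had the lowest difference of its list, -1.83, with 9.83 in siControl against 11.66 in Nondifferentiation. Against siControl it had 0.47 in siSTAU1 and 0.94 in siUPF1.

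**Figure D4:**
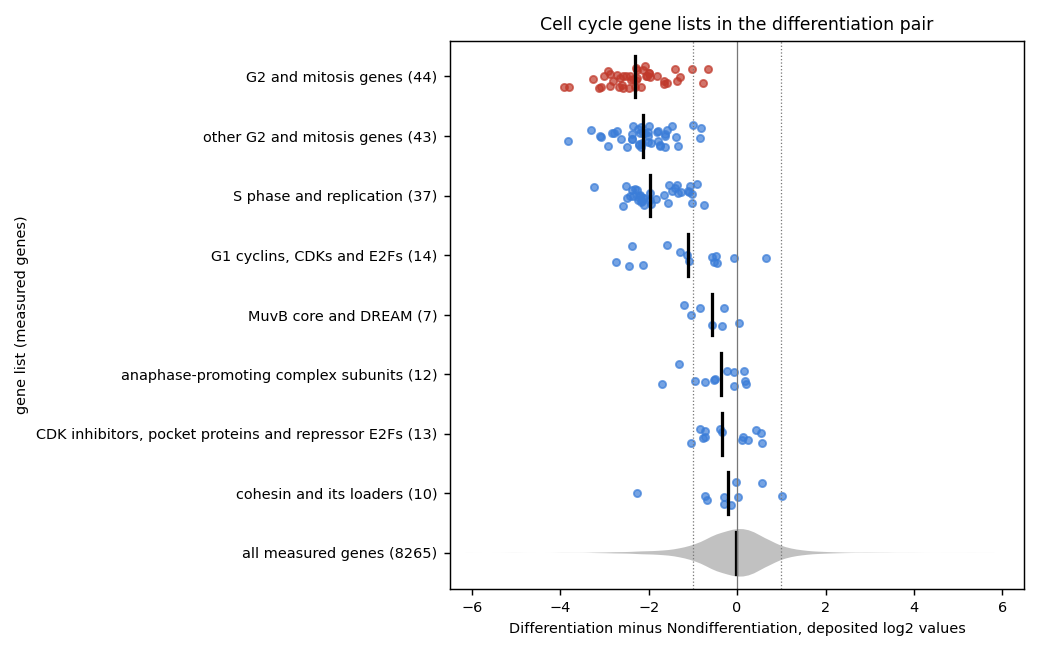
Difference between Differentiation and Nondifferentiation in deposited log2 values (horizontal axis) for measured genes of 8 cell cycle lists, the G2 and mitosis genes in red, with a black bar at each median, and for all 8265 measured genes (grey). The medians run from -2.31 for the G2 and mitosis genes and -1.98 for S phase genes to -0.22 for cohesin, against -0.02 over all measured genes.

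Promoter sequence was then described for the 39 of the 46 genes that had an entry. Of these 39 genes 30 held a CHR word in a promoter window, 76.9%, against 16.2% of the 6833 measured genes with an entry and 5.71% of 35 S phase genes. Counted by window, since a gene can have several start sites, the shares were 64.7% of 51 windows and 16.4% of all 35116 windows in the table. Of the 10413 windows of measured genes, 12% held a CHR word. A CCAAT box was held by 71.8% of the 39 genes and 62.9% of the S phase genes, against 44.6% of measured genes. By window the CCAAT shares were 64.7% for the 39 genes, 35.1% for measured genes and 34.6% over the table. CHR and CCAAT occurred together in 59% of the 39 genes, against 7.01% of measured genes. By window the shares for both together were 49% for the 39 genes, 4.95% for measured genes and 6.38% over the table. The E2F words were held by 5.13% of the 39 genes, CENPA and NUSAP1, against 5.22% of measured genes and 48.6% of S phase genes. By window the E2F shares were 3.92% for the 39 genes, 3.64% for measured genes and 2.27% over the table. A match says only that these letters are in the window. These words were settled after shares for some of them had been seen. A further CHR-like word, TTTAAA, was looked at and left out of the CHR count, and 25.6% of the 39 genes held it, against 11% of measured genes and 8.57% of S phase genes. By window its shares were 21.6% for the 39 genes, 8.4% for measured genes and 12.2% over the table.

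Within the 39 genes CHR words lay nearer the start site than CCAAT boxes by their medians. Of 47 occurrences in 30 of the 39 genes, 35 lay between -100 and 50, and the median position was -29. CCAAT boxes had a median of -87 over 75 occurrences, of which 46 lay between -100 and 50. Positions in other genes are not given here, so they cannot be compared with these. Members with and without a CHR word did not separate in Differentiation. The 30 with one had a median difference of -2.22 and the 9 without, MYBL2, CCNA2, CCNB1, NEK2, AURKB, CENPE, CKAP2, TACC3 and PTTG1, had -2.40. CCNB1 counts as without although its window holds TTTAAA, the word left out of the CHR count. Among all measured genes with an entry, 16.5% of the 1104 with a CHR word were lower by at least 2-fold, against 9.57% of the 5729 without. With both CHR and CCAAT the share was 21.7% of 479 genes, against 9.85% of the rest. The difference was not particular to CHR. For the E2F words the shares were 21% of 357 genes with one and 10.1% of 6476 without. For CCAAT they were 12.6% of 3046 genes with a box and 9.14% of 3787 without. Measured members with an entry are part of these counts.

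**Figure D5:**
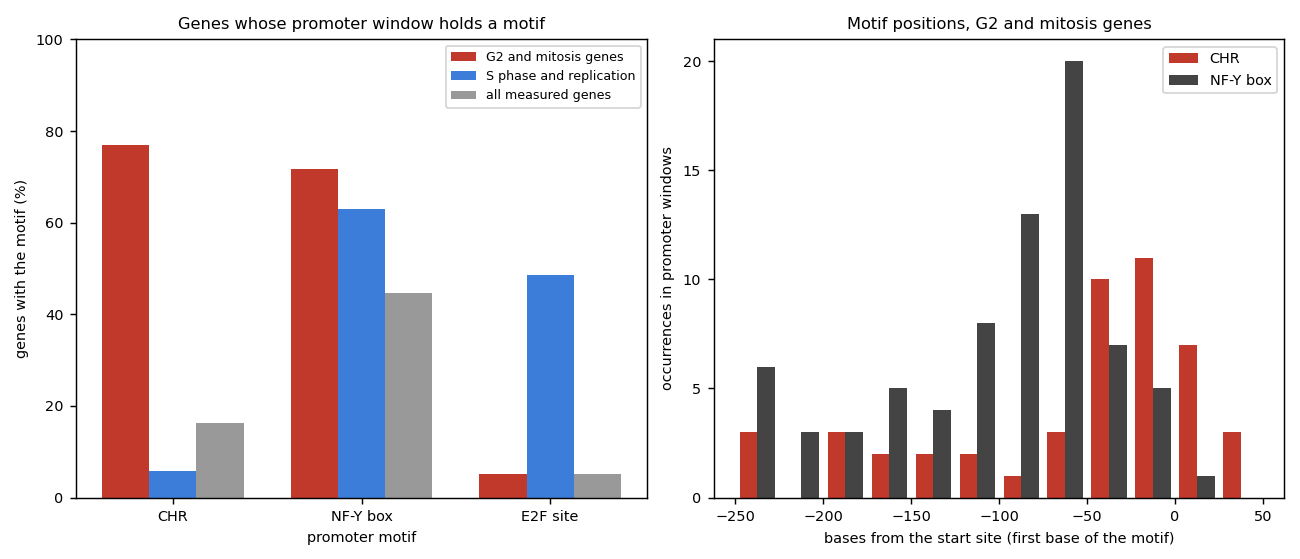
Left, share of genes (vertical axis, %) whose RefSeq promoter window holds a CHR, an NF-Y (CCAAT) box or an E2F site, for the 39 G2 and mitosis genes, 35 S phase genes and 6833 measured genes with an entry. Right, number of matches (vertical axis) by distance from the start site in bases (horizontal axis) in the 51 windows of the 39 genes, where overlapping windows of a gene each count; CHR matches have a median of -29 and CCAAT matches of -87.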

How the data were processed

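The deposited files hold a log2 value for each gene symbol in each of 5 libraries, 1 per group. Per the labels' protocols, libraries were made from 500 ng of RNA with the Lexogen QuantSeq kit, which reads 3' ends. The submitters' processing notes name Bowtie2, edgeR and hg19 without role or version, and the counting step was not stated. That the libraries were quantile normalized is inferred from their common distribution of log2 values. In linear form 100% were multiples of 0.2 within 0.001.

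Groups were taken from the sample titles. Estimated reads are linear values divided by the step between distinct low values, fitted over the 5th to 50th distinct value. They are approximate for high values. Older symbols were matched to the GRCh38.p14 promoter table through RefSeq synonyms, which covered 82.7% of measured genes and 85.4% of the S phase list. For the other G2 and mitosis genes 78.8% matched, so no motif share is given for that list. FOXM1, AURKA, BIRC5, BUB3, TTK, TPX2 and UBE2C have no entry.

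All 46 members were named. Of each other list up to 2 of the highest and 2 of the lowest measured genes were named, and KRT8, SOX10 and PTPRC were chosen after their values were seen. The genes under the measured limit in the list of CDK inhibitors, pocket proteins and repressor E2Fs were also named after their values were seen. Members, lists and motif words were chosen with earlier results of these data known. Python 3.11.15, numpy 2.4.6, pandas 2.3.3 and matplotlib 3.10.9 were used, and the calling steps were tested on simulated data. Alternatives varied the fold, the filter, the pseudocount, the centring and the reference library.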

Additional observations from a re-analysis of the deposited data

How the results depend on the processing

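No member of the 46 called 2-fold lower changed sign under any alternative, and the Differentiation counts over measured members ran from 41 to 44 lower and 0 higher, except with a filter at the upper quartile of values, where 24 of 26 members were lower because fewer genes were tested. CDC25B was the call lost, at -0.99, when the median of all measured genes was subtracted. With siControl as the reference the Differentiation median was -2.65, and with Nondifferentiation as the reference the knockdown medians were 0.28 in siSTAU1 and 0.22 in siUPF1. For siControl against Nondifferentiation 7 measured members were higher at 1.5-fold, against 0 at 2-fold. Of 506 values of single members under alternatives, 385 stayed within their counting interval, 121 moved beyond it and 0 of those past 2-fold changed sign. With Nondifferentiation as the reference 26 of the 46 changed sign in siSTAU1 and 27 in siUPF1, CENPE in siSTAU1 being -0.38 against siControl and 0.57 against Nondifferentiation. Those that moved came from the change of reference and, in Differentiation, from a pseudocount of 32, which moved 16 members. No paired analysis was possible because each group holds 1 library. With 1 library per group, the spread between cultures is unknown, and values near the bottom of the range, such as CDC20 and ESPL1 in Differentiation at about 47 and 50 reads, are the least precise.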

Other observations

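Cohesin, the ring that holds sister chromatids together, moved little as a list in Differentiation against Nondifferentiation. Of 10 measured genes 1 was lower and 1 was higher, and the median was -0.22. CDCA5, the cohesin protector sororin, stood at 6.40 in Differentiation against 8.66 in Nondifferentiation, a difference of -2.26, and SMC1A, a ring subunit, had -0.73. MAU2 and NIPBL, which load cohesin, had 1.01 and 0.56.

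Markers of the noradrenergic state of neuroblastoma had a median of -0.81 over 8 measured genes in the same pair, with 3 lower and 0 higher. ISL1 had -2.90 and DBH, which makes noradrenaline, had -2.31. Of 4 measured mesenchymal markers 2 were higher and 1 was lower, with NOTCH2 at 2.09, the matrix protein FN1 at 1.18 and VIM at -1.25.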
